A study of Mus musculus with 6 samples.

Results

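The genes described here, 8 in number, act in haem breakdown and iron handling and were followed in mouse bone marrow macrophages: Hmox1, Blvrb, Spic, Slc40a1, Fth1, Ftl1, Slc11a1 and Tfrc. They were taken by symbol from the deposited gene matrix, where all 8 were found among 17528 listed genes, and all 8 passed the filter on low values that left 14304 genes for testing. The cells were sorted as CD11b+F4/80+ from the femurs of BALB/c mice of the genotype RAG2-/-γc-/-, which lack T, B and natural killer cells. The genotype was shared by every group, the non-engrafted one included. There were 3 groups of 2 libraries: non-engrafted mice (day 0), and mice 4 days or 18 days after Raji cells, a human B cell lymphoma line, were injected into a vein. The labels give neither the age of the mice nor whether each library is a different animal, and the p-values therefore cover library-to-library spread only, which may be technical. No group of non-engrafted mice was kept alongside to day 4 or day 18, so the graft, the injection and the elapsed time cannot be told apart.

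Macrophages of the bone marrow, spleen and liver clear old red blood cells and the nuclei expelled by erythroblasts. Haem oxygenase 1 (Hmox1) opens the haem ring and frees the iron, biliverdin reductase B (Blvrb) reduces biliverdin, and the transcription factor Spi-C (Spic) is induced by haem and is needed for the iron-recycling macrophages of the spleen. The iron is stored in ferritin, a shell of heavy (Fth1) and light (Ftl1) chains, or leaves the cell through ferroportin (Slc40a1). Slc11a1 (NRAMP1) moves iron and other metals out of the phagosome, and the transferrin receptor (Tfrc) brings in iron bound to transferrin. BALB/c mice carry the Slc11a1 allele that leaves them susceptible to several intracellular pathogens.

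Messenger RNAs of iron storage, export and uptake are also controlled after transcription, through iron-responsive elements, short hairpins bound by the iron regulatory proteins when iron is low. Bound in the 5′ untranslated region the proteins block translation, and bound in the 3′ untranslated region of Tfrc they protect the RNA from decay. Because this layer acts on the RNA itself or on its translation, elements found in the genes measured here by a search for 1 set pattern are shown. They are written 5′ to 3′ from the GENCODE M21 transcripts on the mm10 build, with the 6-base loop in capitals.
Slc40a1: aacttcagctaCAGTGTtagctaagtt
Fth1: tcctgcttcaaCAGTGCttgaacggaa
Ftl1: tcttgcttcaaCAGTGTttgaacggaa
Tfrc element 1: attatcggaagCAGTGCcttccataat
Tfrc element 2: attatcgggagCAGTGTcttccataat
Tfrc element 3: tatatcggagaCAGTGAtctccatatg
Tfrc element 4: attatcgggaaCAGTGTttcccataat

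The Slc40a1, Fth1 and Ftl1 elements lay in the 5′ untranslated region, at chr1:45925466-45925492 on the minus strand, chr19:9982733-9982759 on the plus strand and chr7:45459780-45459806 on the minus strand. The 4 elements found in Tfrc lay in the 3′ untranslated region on the plus strand, at chr16:32631220-32631246, chr16:32631599-32631625, chr16:32631664-32631690 and chr16:32631711-32631737. The Fth1 and Ftl1 elements shared 25 of 27 bases and differed by C3T and C17T, with the Fth1 base first and positions counted from 1 at the 5′ end. Tfrc elements 1 and 2 also shared 25 bases. The Slc40a1 element shared 13 bases with each ferritin element. The pattern searched, on the sense strand of the transcript, was the loop CAGTGN with any last base but G, 5 pairs of upper stem (G with U allowed), an unpaired C, and at least 3 of 5 pairs of lower stem. It was found in 68 of 21877 protein-coding genes (0.311%). The first-named transcripts of Hmox1, Blvrb, Spic and Slc11a1 held no match, which says only that these letters are not in those transcripts. In all 8 genes, Tfrc included, an element that departs from the pattern would be missed. Protein and translation were not measured, so the values below bear on RNA levels alone.

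Between 20073016 and 23214528 reads were assigned to the listed genes in each library. Levels are given as reads per 1000000 assigned reads (RPM), computed from the deposited RPKM values and scaled between libraries. The labelled cell type was only partly borne out by the most abundant transcripts: Ngp, S100a9, S100a8 and Ltf, which mark maturing neutrophils, were among the 5 most abundant with Lyz2, and the 14 late neutrophil markers summed to 149992 and 150372 RPM at day 0, 128513 and 133027 RPM at day 4, and 111581 and 113268 RPM at day 18. The macrophage markers Vcam1, Adgre1 and C1qa were present, and 17 of 18 resident macrophage markers passed the filter. So did 14304 of all 17528 listed genes, all 14 late neutrophil markers and all 9 eosinophil markers, so passing it does not mark out a cell type. In bulk RNA, a change in the share of a cell type and a change in RNA per cell cannot be told apart. limma called 1723 genes at day 4 against day 0 (778 higher and 945 lower), 5028 at day 18 against day 0 (2583 higher and 2445 lower) and 3701 at day 18 against day 4 (2004 higher and 1697 lower), at a Benjamini-Hochberg adjusted p under 0.05. With library totals in place of the scaling factors the split was 1261 higher and 461 lower at day 4, and 3432 higher and 1423 lower at day 18 against day 0.

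At day 4, 4 of 8 changed against day 0, beside 12.0% of all tested genes. None of the 8 was higher, beside 5.44% of tested genes called higher, and Hmox1, Slc40a1, Fth1 and Tfrc were lower, beside 6.61% called lower. At day 18, 7 of 8 changed against day 0, beside 35.2% of tested genes: Fth1, Ftl1, Spic and Slc11a1 were higher, beside 18.1% of tested genes called higher, and Hmox1, Slc40a1 and Tfrc were lower, beside 17.1% called lower. Between day 18 and day 4, 7 of 8 changed beside 25.9% of tested genes, with Hmox1, Fth1, Ftl1, Spic and Slc11a1 higher (14.0% of all) and Slc40a1 and Tfrc lower (11.9% of all). The libraries of the groups did not overlap for 6 of 8 genes at day 4 against day 0, for 8 of 8 at day 18 against day 0 and for 8 of 8 at day 18 against day 4. Among all tested genes the shares without overlap were 50.9%, 66.4% and 58.8% in the same order. The median log2 fold change of the 8 was -0.19, 0.24 and 0.39 in those comparisons, and that of all tested genes was 0.005, 0.016 and 0.008. The first and second comparisons use the same day 0 libraries, so their values are set side by side and not counted as independent. The shares over all tested genes were not matched for level or precision. At day 18 against day 0 the median SE of all tested genes was 0.115. Among the 8 it was 0.067 or less except for Spic (0.145) and Blvrb (0.153), so small changes were more readily called.

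**Figure D1:**
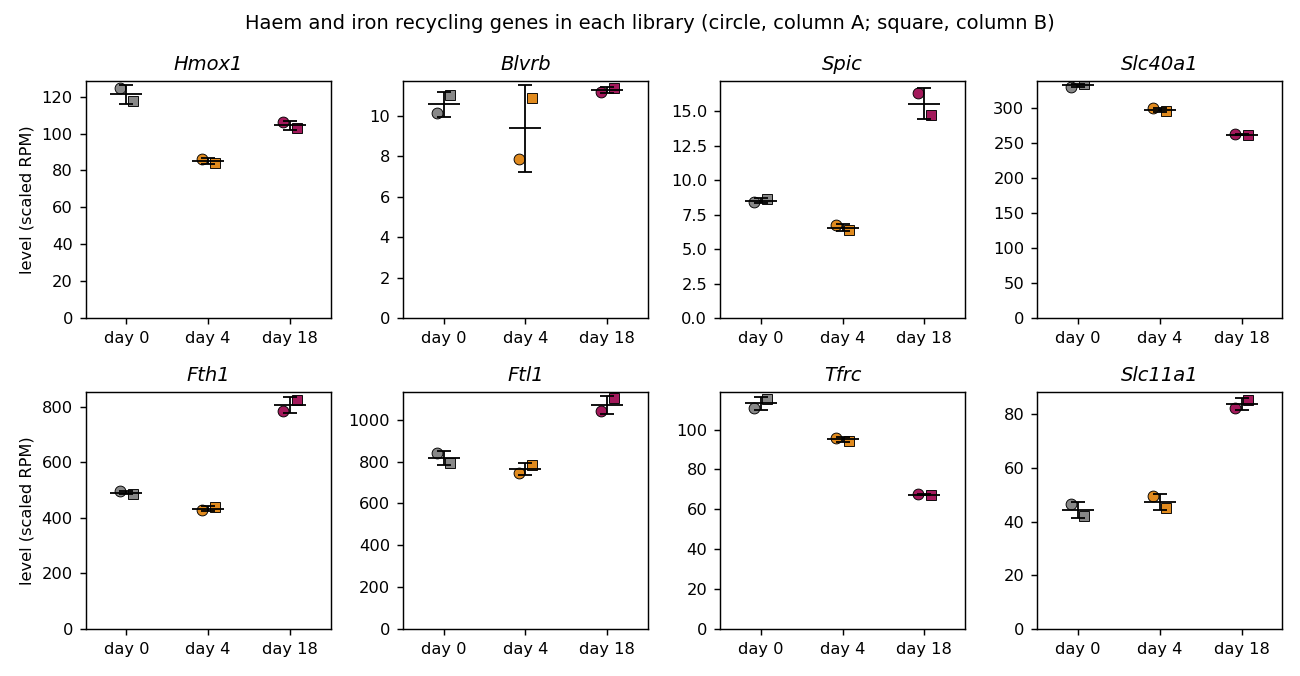
Level of each of the 8 genes (RPM, linear axes that start at 0) in the 2 libraries of day 0, day 4 and day 18, with library A as a circle, library B as a square and the group mean as a line. Fth1 and Slc11a1 stand highest at day 18, Tfrc and Slc40a1 step down at each time, Hmox1 is lowest at day 4, and the Blvrb libraries overlap between day 4 and day 0.

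The calls at day 4 depended on how the spread was estimated. When limma's prior spread was made the same for all expression levels, 0 genes were called at day 4 against day 0, with 2459 at an unadjusted p under 0.05, and 0 of the 8 genes were called. On the deposited RPKM scale, which is per kilobase of gene span, Hmox1 alone of the 8 was called at day 4, among 91 genes in all. At day 18 against day 0 the same changes left 6 of the 8 called with the common prior spread, all but Hmox1 of the 7, among 2617 of 14304 genes, and 7 called on the RPKM scale, among 3366 genes.

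Per kilobase of transcript, which is the scale on which different genes can be set against each other, the ferritin chains stood far above the rest. At day 0 the order was Ftl1 at 846 ± 34.5 RPM per kilobase, Fth1 at 529 ± 7.20, Slc40a1 at 98.8 ± 0.741, Hmox1 at 77.3 ± 3.20, Tfrc at 23.2 ± 0.664, Slc11a1 at 19.1 ± 1.34, Blvrb at 10.3 ± 0.597 and Spic at 4.83 ± 0.0980 RPM per kilobase (SD, n = 2 libraries). At day 4 the same genes came in the same order except that Slc11a1, at 20.4 ± 1.34, and Tfrc, at 19.4 ± 0.240 RPM per kilobase, overlapped and could not be ordered. At day 18 Slc11a1 stood clear of Tfrc, at 36.2 ± 0.973 against 13.8 ± 0.0805 RPM per kilobase, and Blvrb and Spic came close at 10.96 ± 0.147 and 8.82 ± 0.635 RPM per kilobase. Every other pair of neighbours in the order was separated in both libraries on every day. Among the 14304 tested genes ranked by mean RPM, which also reflects transcript length, Ftl1 was 72, Fth1 was 162 and Slc40a1 was 508, while Blvrb was 8395 and Spic was 8438.

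Hmox1, the enzyme that opens haem, was lowest at day 4. It had 124.8 and 117.7 RPM at day 0, 86.3 and 84.1 RPM at day 4, and 106.2 and 102.8 RPM at day 18, from 1718 to 2810 reads a library. The 3 groups did not overlap: both day 4 libraries lay below both day 18 libraries, which lay below both day 0 libraries. Hmox1 lies on chromosome 8 at 75093621 to 75100589 (mm10, plus strand). On the log2 scale it was lower by 0.51 ± 0.048 at day 4 than at day 0 (SE; limma adjusted p = 2.60e-08), a mean of 85.2 ± 1.56 RPM at day 4 against 121 ± 5.02 RPM at day 0 (SD, n = 2 each). At day 18 the log2 fold change against day 0 was -0.21 ± 0.048 (limma adjusted p = 0.000839) and against day 4 it was 0.29 ± 0.048 (limma adjusted p = 2.84e-05). With the same prior spread for all levels the adjusted p was 0.0955, 0.0755 and 0.0572 in these comparisons, and with library totals the value at day 18 against day 0 was -0.13.

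Blvrb, the gene of biliverdin reductase B, did not pass the test in any comparison. It had 10.1 and 10.997 RPM at day 0, 7.86 and 10.9 RPM at day 4, and 11.2 and 11.4 RPM at day 18, from 173 to 263 reads a library. Day 4 library B lay among the day 0 libraries and day 4 library A below them, while the day 18 libraries lay just above all others. The log2 fold change was -0.19 ± 0.153 at day 4 against day 0, 0.09 ± 0.153 at day 18 against day 0 and 0.28 ± 0.153 at day 18 against day 4 (SE; limma adjusted p = 0.503, 0.684 and 0.196). The value at day 4 rests on library A, without which it was 0.04 (adjusted p = 0.915), and without day 4 library B the difference of day 18 from day 4 was 0.51 and passed the test (adjusted p = 0.0278). Blvrb lies on chromosome 7 at 27447978 to 27466144 (mm10, plus strand).

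Spic, the haem-induced transcription factor, was a low-level gene that was highest at day 18. It had 8.40 and 8.64 RPM at day 0, 6.77 and 6.37 RPM at day 4, and 16.3 and 14.8 RPM at day 18, from 130 to 341 reads a library. The day 4 libraries lay below the day 0 libraries and the day 18 libraries stood above all others. Its log2 fold change was 0.86 ± 0.145 at day 18 against day 0 (SE; limma adjusted p = 2.89e-05) and 1.23 ± 0.145 at day 18 against day 4 (adjusted p = 1.88e-07). At day 4 against day 0 it was -0.37 ± 0.145, which did not pass the test (adjusted p = 0.102). Spic lies on chromosome 10 at 88674772 to 88685015 (mm10, minus strand).

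**Figure D2:**
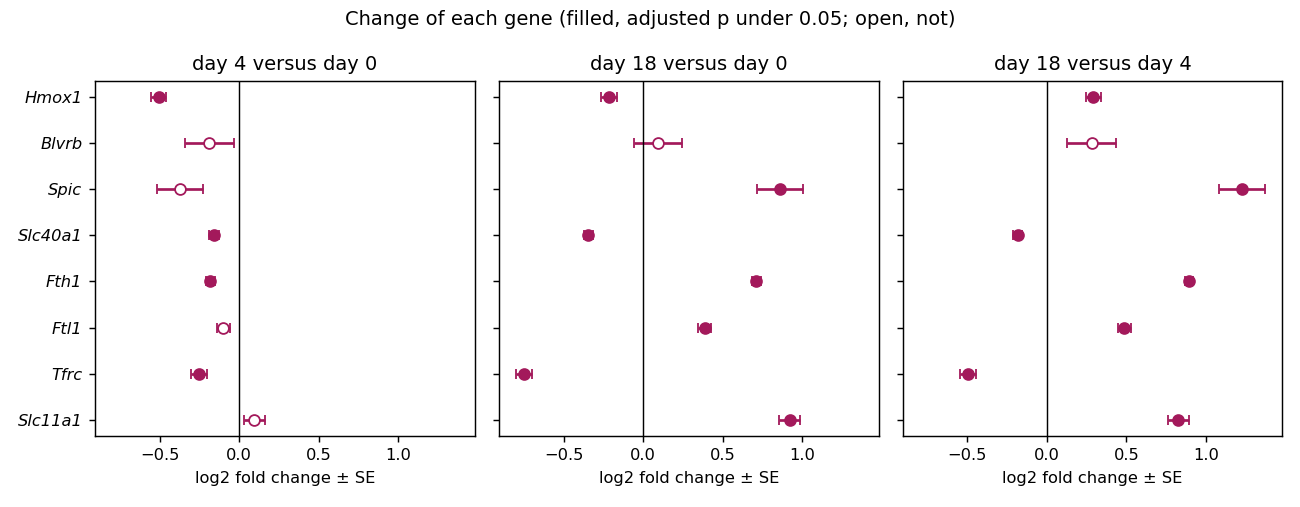
Log2 fold change of each of the 8 genes for day 4 against day 0, day 18 against day 0 and day 18 against day 4, with bars of 1 SE and filled points where the limma adjusted p was under 0.05. Spic, Slc11a1 and Fth1 have the highest values at day 18, Tfrc the lowest, and no gene has a filled point above 0 for day 4 against day 0.

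Slc40a1, which encodes the iron exporter ferroportin, stepped down at both times. It had 331.3 and 334.8 RPM at day 0, 300.1 and 295.9 RPM at day 4, and 262.8 and 261.8 RPM at day 18. The steps were small, but each was wider than the gap between the libraries of any group. The log2 fold change was -0.16 ± 0.030 at day 4 against day 0 (SE; limma adjusted p = 0.000488), -0.34 ± 0.030 at day 18 against day 0 (adjusted p = 6.08e-10) and -0.18 ± 0.030 at day 18 against day 4 (adjusted p = 2.70e-05). The day 4 call was lost on the RPKM scale (adjusted p = 0.0906) and with the same prior spread for all levels (adjusted p = 0.229), which also ended the call of day 18 against day 4 (adjusted p = 0.0918). Slc40a1 lies on chromosome 1 at 45908068 to 45926523 (mm10, minus strand).

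The ferritin chains were higher at day 18, and the heavy chain more so than the light chain. Fth1, the chain that oxidises iron on entry to the shell, had 495.8 and 486.4 RPM at day 0, 426.9 and 439.4 RPM at day 4, and 784.7 and 825.3 RPM at day 18. The day 4 libraries lay below and the day 18 libraries far above those of day 0. Its log2 fold change was -0.18 ± 0.027 at day 4 against day 0 (SE; limma adjusted p = 2.57e-05), 0.71 ± 0.027 at day 18 against day 0 (adjusted p = 2.51e-17) and 0.89 ± 0.027 at day 18 against day 4 (adjusted p = 2.60e-19). The small day 4 difference lost its call on the RPKM scale (adjusted p = 0.111) and with the same prior spread for all levels (adjusted p = 0.236). Fth1 lies on chromosome 19 at 9980598 to 9985098 (mm10, plus strand).

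Ftl1, the chain that helps the iron core to form, had 842.5 and 795.3 RPM at day 0, 743.4 and 784.5 RPM at day 4, and 1040 and 1102 RPM at day 18. Both day 18 libraries stood above all others, and the day 4 libraries lay below those of day 0 by less than the gap within day 0. Its log2 fold change was 0.39 ± 0.041 at day 18 against day 0 (SE; limma adjusted p = 0.000173) and 0.49 ± 0.041 at day 18 against day 4 (adjusted p = 6.14e-05). At day 4 against day 0 it was -0.10 ± 0.041 and did not pass the test (adjusted p = 0.187). That value turned on single libraries: it was -0.14 without day 0 library B (adjusted p = 0.0347) or day 4 library B (0.0394), and -0.06 without day 0 library A (adjusted p = 0.428) or day 4 library A (0.417). With library totals it was -0.05 (adjusted p = 0.459), and in a fit of the 4 libraries alone it passed at -0.10 (adjusted p = 0.0433). Ftl1 lies on chromosome 7 at 45457944 to 45459884 (mm10, minus strand).

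The Ftl1 values carry a particular uncertainty, since the light chain has copies in the mouse genome. Ftl1-ps1, on chromosome 13, is annotated as protein-coding in GENCODE M21. It had 448.7 and 452.2 RPM at day 0, 456.9 and 457.2 RPM at day 4, and 639.2 and 608.9 RPM at day 18. Of the 50-base windows of the Ftl1 transcript, 73.4% occur letter for letter in an Ftl1-ps1 transcript, and the reads recovered for Fth1, Ftl1 and Ftl1-ps1 were not whole numbers in every library, so how reads were divided between the copies is uncertain. With the listed copies summed, a step chosen after the values were seen, the light chain kept its direction, with a log2 fold change of 0.42 ± 0.020 at day 18 against day 0 (SE; limma adjusted p = 7.07e-15) and -0.06 ± 0.020 at day 4 against day 0 (adjusted p = 0.0769). The heavy chain summed with its listed copy gave 0.71 at day 18 against day 0.

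Tfrc, the receptor for iron-loaded transferrin and the carrier of the 4 elements printed above for its 3′ untranslated region, stepped down at both times. It had 111.0 and 115.6 RPM at day 0, 95.9 and 94.3 RPM at day 4, and 67.6 and 67.1 RPM at day 18. No group overlapped another, and the libraries of day 4 and of day 18 lay close together. Its log2 fold change was -0.25 ± 0.049 at day 4 against day 0 (SE; limma adjusted p = 0.000827), -0.75 ± 0.049 at day 18 against day 0 (adjusted p = 2.53e-12) and -0.50 ± 0.049 at day 18 against day 4 (adjusted p = 1.04e-08). The day 4 call was lost on the RPKM scale (adjusted p = 0.0809) and with the same prior spread for all levels (adjusted p = 0.162). Tfrc lies on chromosome 16 at 32608920 to 32632794 (mm10, plus strand).

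Slc11a1, the metal transporter of the phagosome membrane, changed at day 18. It had 46.4 and 42.0 RPM at day 0, 49.4 and 45.1 RPM at day 4, and 82.2 and 85.4 RPM at day 18. The libraries of day 4 and day 0 overlapped, and those of day 18 stood well above both. Its log2 fold change was 0.10 ± 0.067 at day 4 against day 0 (SE; limma adjusted p = 0.428), 0.92 ± 0.067 at day 18 against day 0 (adjusted p = 1.70e-11) and 0.83 ± 0.067 at day 18 against day 4 (adjusted p = 2.42e-10). Slc11a1 lies on chromosome 1 at 74375195 to 74386062 (mm10, plus strand).

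Ratios within a library, which do not depend on the scaling between libraries, also changed with time. The ratio of Fth1 to Ftl1 per kilobase of transcript was 0.613 and 0.637 in day 0 libraries, 0.598 and 0.584 in day 4 libraries, and 0.786 and 0.781 in day 18 libraries. With the reads of Ftl1 and its listed copies summed, the ratio of Fth1 to the light chain in RPM was 0.384 and 0.390 in day 0 libraries, 0.3555 and 0.354 in day 4 libraries, and 0.467 and 0.483 in day 18 libraries, against 0.589 and 0.612, 0.574 and 0.560, and 0.755 and 0.749 for Ftl1 alone in RPM. The ratio of Fth1 to Tfrc in RPM, storage against uptake, was 4.47 and 4.21 in day 0 libraries, 4.45 and 4.66 in day 4 libraries, and 11.6 and 12.3 in day 18 libraries. The ratios to the light chain were lower in both day 4 libraries than in both day 0 libraries, the ratio to Tfrc overlapped between these days, and all were highest in the day 18 libraries. The ferritin chains made up 67.9% and 67.1% of the RPM of the 8 genes in day 0 libraries, 68.2% and 69.5% in day 4 libraries, and 77.0% and 78.0% in day 18 libraries. Of the assigned reads, the 8 genes together took 0.191% and 0.185% in day 0 libraries, 0.173% and 0.176% in day 4 libraries, and 0.244% and 0.253% in day 18 libraries. With 2 libraries a group an exact permutation test of such a ratio cannot give a two-sided p below 0.333, so these ratios are descriptions.

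**Figure D3:**
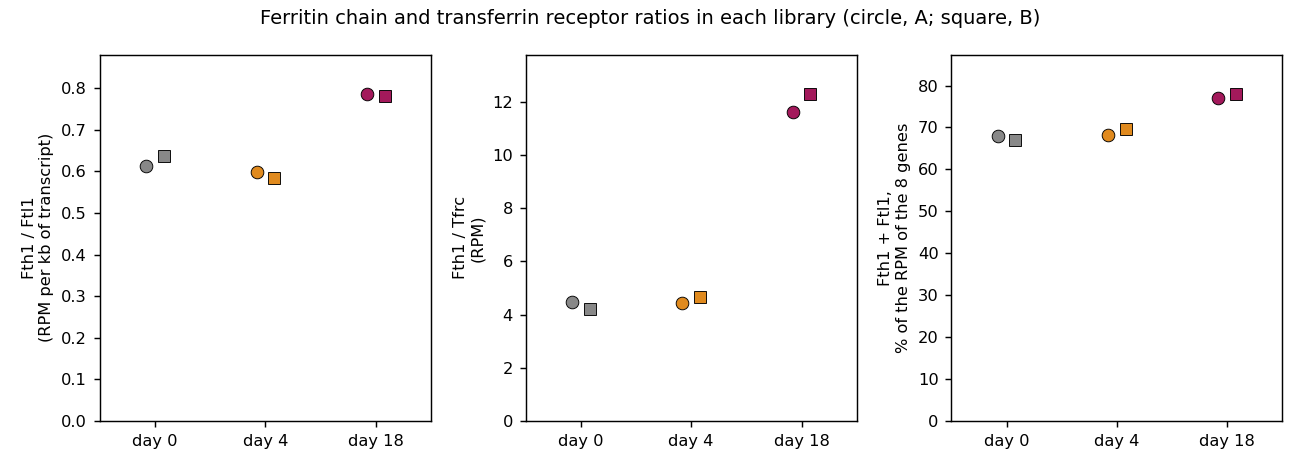
Ratio of Fth1 to Ftl1 per kilobase of transcript, ratio of Fth1 to Tfrc in RPM, and ferritin as a percentage of the RPM of the 8 genes, in each library, with library A as a circle and library B as a square and axes that start at 0. The day 18 libraries are highest in all 3 panels, and for Fth1 to Tfrc they stand at 11.6 and 12.3 against 4.21 to 4.66 in the other 4 libraries.

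Of 14 other tested genes of haem handling, 2 were higher and 2 lower at day 4 than at day 0, 5 were higher and 2 lower at day 18 than at day 0, and 8 were higher and 0 lower at day 18 than at day 4. Their median log2 fold change was -0.05, 0.17 and 0.27 in these comparisons. Lrp1, the receptor for haem bound to haemopexin, rose at both times, with log2 fold changes of 0.57 ± 0.040 at day 4 and 1.24 ± 0.040 at day 18 against day 0 (SE). Bach1, the repressor of Hmox1 that haem inactivates, rose at day 18 by 0.31 ± 0.042, and at day 4 its value was 0.02. Maf rose at day 18 by 0.89 ± 0.120, and Hebp1, which binds haem, rose by 0.27 at day 4 and 0.94 at day 18. Cd163, the receptor for haemoglobin bound to haptoglobin, which was picked after its values were seen and also stands in the resident macrophage list, had 11.6 and 10.8 RPM at day 0, 6.41 and 4.95 RPM at day 4, and 7.30 and 7.70 RPM at day 18. It was lower than at day 0 at both times, by log2 values of -0.98 ± 0.167 and -0.58 ± 0.167 (limma adjusted p = 0.000159 and 0.00811).

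Among 14 other tested genes of iron uptake and release inside the cell, 2 were higher and 1 lower at day 4, and 5 were higher and 3 lower at day 18, each against day 0, with a median log2 fold change of 0.09 at day 18. Hfe, a partner of the transferrin receptor, rose at both times, by 0.48 ± 0.107 and 1.00 ± 0.107. Slc11a2 (DMT1), which carries iron across the endosome membrane, rose at day 18 by 1.14 ± 0.232. Ncoa4, which delivers ferritin for breakdown, fell at day 18 with a log2 fold change of -0.14 ± 0.029. Lcn2, which binds bacterial iron carriers and is also one of the late neutrophil markers, had a log2 fold change of -0.34 at day 18. Of that marker list, Lcn2 included, 10 of 14 were lower and 2 higher at day 18. Slc39a14 (ZIP14), an importer of iron not bound to transferrin, was picked after its values were seen. It had 0.355 and 0.601 RPM at day 0, 0.409 and 0.735 RPM at day 4, and 9.37 and 7.79 RPM at day 18, a log2 fold change of 3.94 ± 0.384 at day 18 against day 0 (limma adjusted p = 4.94e-09). The day 18 libraries stood apart from the other 4, which held few reads of this gene.

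Beside the ferritin chains, 3 genes of storage and iron chaperones were tested, and 1 was lower at each time than at day 0. The chaperone Pcbp2 had a log2 fold change of -0.09 at both times, which passed the test, and Pcbp1 did not pass the test. Of 4 other tested genes of the export list, 1 was higher and 1 lower at day 4, and 2 were higher and 1 lower at day 18. Trf (transferrin) rose by 0.32 and 0.34 at day 4 and day 18. Ltf (lactoferrin), a granule protein of neutrophils, had log2 fold changes of -0.20 and -0.47. It is itself 1 of the 14 late neutrophil markers, of which 11 were lower at day 4, and 10 lower and 2 higher at day 18. Usf2 did not pass the test in any comparison.

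Genes of the list of iron regulatory proteins and their control, which also holds Hif1a, Epas1, Id1, Smad6 and Smad7, moved in different directions. Of 9 tested genes in that list, 1 was higher and 3 lower at day 4, and 4 were higher and 2 lower at day 18 against day 0, with a median log2 fold change of 0.42 at day 18. Aco1 (IRP1) rose at day 18 by 0.42, Ireb2 (IRP2) fell with a log2 fold change of -0.27, and Fbxl5, which marks IRP2 for breakdown when iron is plentiful, rose by 0.23. Hif1a, the oxygen-regulated factor, had 79.0 and 76.7 RPM at day 0, 66.6 and 70.1 RPM at day 4, and 157 and 162 RPM at day 18, a log2 fold change of 1.03 ± 0.049 at day 18 against day 0 (limma adjusted p = 3.77e-15). The binding of the proteins to RNA was not measured.

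Of 14 tested genes of iron-sulphur cluster assembly, 1 was higher at day 4 and 4 were higher at day 18, each against day 0. Whether genes of this list were called lower is not reported here. Iscu, Glrx5 and Hspa9 were higher by 0.43, 0.30 and 0.35 at day 18. Of 12 tested genes of haem synthesis, 2 were higher at day 4, and 1 (Tmem14c, 0.25) was higher at day 18. Alas1, the first enzyme of that route, was higher at day 4 by 0.23, and its value at day 18 was -0.07. The remaining genes named from that list, Fech and Slc25a38, did not pass the test. Of 17 tested targets of NRF2, a factor that also drives Hmox1 and the ferritin genes, 5 were lower and 0 higher at day 4, and 4 were higher and 6 lower at day 18 against day 0. Prdx1 rose by 0.73 at day 18, and G6pdx, Pgd and Tkt, enzymes of the pentose phosphate route, had log2 fold changes of -0.34, -0.38 and -0.28. The p-values behind these counts are limma's, adjusted over all 14304 genes. Beside the counts of every list, 5.44% of all tested genes were called higher and 6.61% lower at day 4 against day 0. The shares were 18.1% and 17.1% at day 18 against day 0, and 14.0% and 11.9% at day 18 against day 4.

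**Figure D4:**
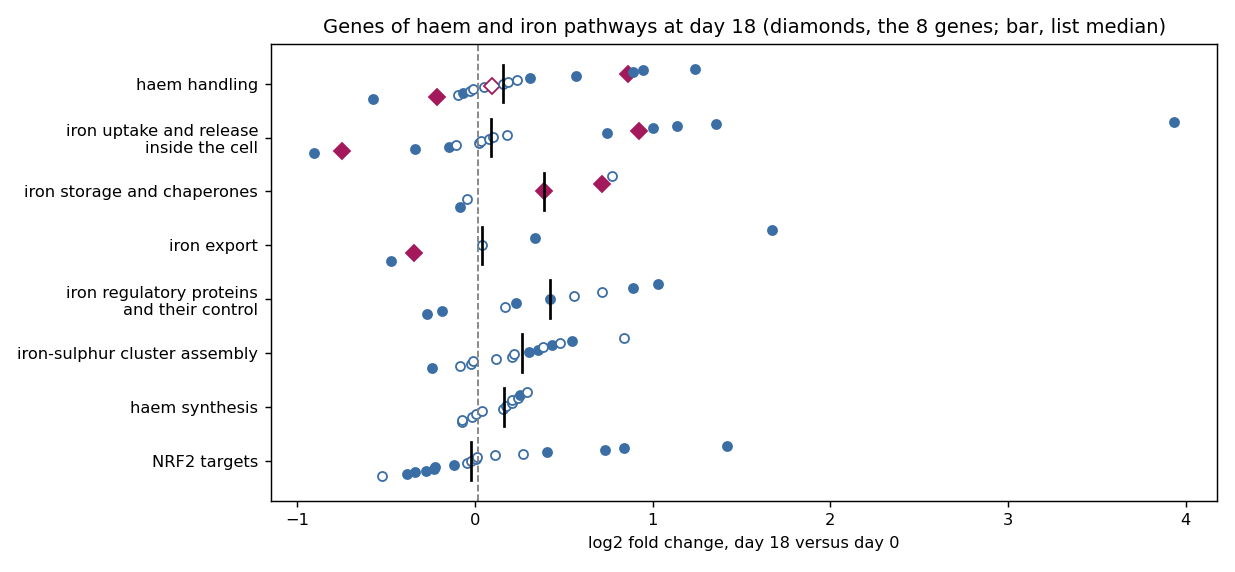
Log2 fold change at day 18 against day 0 of each tested gene in the 8 pathway lists, with the 8 genes as diamonds, others as circles, filled where the limma adjusted p was under 0.05, a bar at each list's median and a dashed line at the median of all tested genes. Medians, members included, lie between -0.03 for NRF2 targets and 0.42 for the iron regulatory proteins and their control.

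Markers of other cells in or near the sorted gate moved at the same times. The erythroid markers, most of whose sum was globin RNA, summed to 263 and 278 RPM at day 0, 153 and 150 RPM at day 4, and 383 and 397 RPM at day 18. Of 10 that were tested, 5 were lower at day 4, and 6 were higher at day 18, each against day 0. Hbb-bs, a beta globin, had 101 and 111 RPM at day 0, 53.1 and 57.1 RPM at day 4, and 153 and 155 RPM at day 18. This order, with day 4 lowest and day 18 highest, is also that of Fth1, Ftl1 and Spic. For Ftl1 and Spic the day 4 difference from day 0 did not pass the test. The resident macrophage, eosinophil and stromal sums given below have the same order. Ahsp was not listed.

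The resident macrophage markers summed to 504 and 496 RPM at day 0, 427 and 413 RPM at day 4, and 568 and 588 RPM at day 18. Of 17 tested, 1 was higher and 7 lower at day 4, and 8 were higher and 4 lower at day 18 against day 0. Vcam1, the most abundant of them, had 137 and 147 RPM at day 0, 146 and 140 RPM at day 4, and 155 and 164 RPM at day 18. The complement gene C1qa had 42.0 and 37.5 RPM at day 0, 26.9 and 28.8 RPM at day 4, and 64.5 and 69.6 RPM at day 18. Axl and Mrc1 were lower than at day 0 at both times, and Siglec1 was lower at day 18. Eosinophil markers summed to 355 and 353 RPM at day 0, 290 and 314 RPM at day 4, and 620 and 627 RPM at day 18, with 7 of 9 higher at day 18 than at day 0. The 13 proliferation genes summed to 3914 and 3949 RPM at day 0, 3641 and 3589 RPM at day 4, and 2917 and 2927 RPM at day 18, and 12 of 13 were lower at day 18 than at day 0. At day 4, 4 of 13 were lower than at day 0 and 1 was higher, with a median log2 fold change of -0.08. Tfrc and Slc40a1 were also lowest at day 18. Of the late neutrophil markers, whose sum too was lowest at day 18, 11 of 14 were lower at day 4, and 10 of 14 were lower and 2 higher at day 18 than at day 0.

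Early neutrophil markers summed to 2939 and 2984 RPM at day 0, 4418 and 4461 RPM at day 4, and 3266 and 3309 RPM at day 18, with 7 of 8 higher at day 4 than at day 0. Classical monocyte markers summed to between 5817 and 6157 RPM in all libraries. Chil3, the most abundant of these 10 markers, fell from a mean of 3947 RPM at day 0 to 2690 RPM at day 18. The mean sum was 6117 RPM at day 0 and 6067 RPM at day 18, so the share of Chil3 in it fell. Of the 10, 5 were higher and 3 lower at day 4, and 6 were higher and 3 lower at day 18, each against day 0, with a median log2 fold change of 0.99 at day 18. Non-classical monocyte markers summed to between 1133 and 1353 RPM, and 8 of 11 were higher and 1 lower at each time than at day 0, with a median of 0.74 at day 18. Basophil and mast cell markers lay between 59.5 and 96.3 RPM, highest at day 4, with 4 of 7 higher at day 4 and 2 of 7 lower at day 18, and stroma and endothelium markers between 13.3 and 30.2 RPM, highest at day 18, with 3 of 6 higher and 1 lower at day 18. Of 10 B lineage markers 4 were listed, they summed to 5.997 to 9.04 RPM, and neither of those tested passed the test. The part of these markers in the results on the 8 genes was not tested.

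**Figure D5:**
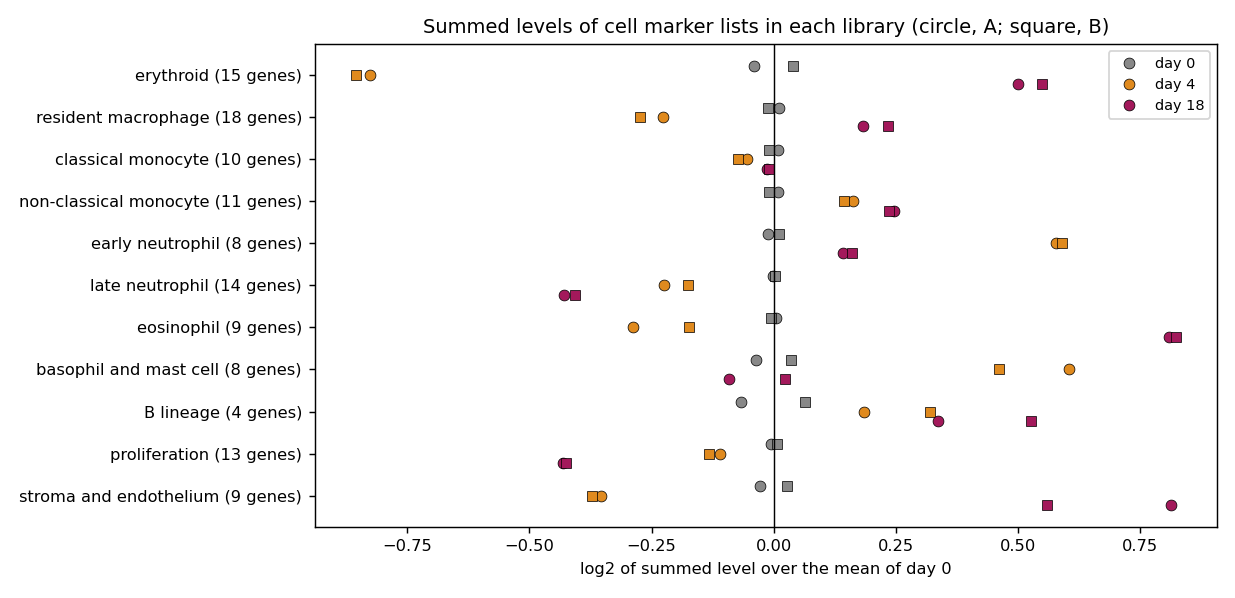
Summed level of each of the 11 marker lists in the 6 libraries, relative to the mean of the day 0 libraries, on a log2 axis. Circles are library A and squares library B. Erythroid, resident macrophage, eosinophil and stromal markers are lowest at day 4 and highest at day 18, and late neutrophil and proliferation markers are lowest at day 18.

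Across the 6 libraries, the genes whose log2 levels most resembled those of the 8 were found among 8298 genes of at least moderate level. For Fth1 these were Hif1a and Pim1 (Pearson r = 0.998 each), for Ftl1 Fcgr3 and Spred1 (0.996 each), for Slc11a1 Tsc22d3 and Tlr1 (0.998 each) and for Spic Psma7 (0.997) and Cxcl2 (0.996). For Tfrc they were Trp53inp2 and the proliferation gene Mki67 (0.999 each), and for Slc40a1 Prkcb and Myh9 (0.999 each). Hmox1 was most like Ubxn2a (0.989) and Braf (0.988), and Blvrb most like Aldh16a1 (0.975) and Srp9 (0.967). These coefficients describe 6 libraries in 3 groups, share each library's scaling, and are the highest of many, so values near 1 arise readily.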

How the data were processed

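Illumina libraries were made from total RNA of the sorted femur cells, per the labels' protocols. STAR 2.5.3a and the build mm10 are named, per the submitters' processing notes, while the counter and annotation were not given in the sources used here. RPKM values were deposited by the authors, per kilobase of the whole gene span: multiplied by that span in kilobases, each library sums to 1000000. The worth of 1 read was recovered from the low values, but only 76.6% to 78.1% of genes came out whole (within 0.05 reads plus 5e-06 of the value), so no count test was run. The design foresaw this unit.

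RPM was scaled by trimmed mean of M-values factors (trims 0.3 and 0.05) between 0.968 and 1.03. Genes with the equivalent of 10 reads at median depth (0.453 RPM) in at least 2 libraries and at least 15 reads in all were tested. limma 3.58.1 in R 4.3.3, robust, with a level-dependent prior spread, was fitted to log2(RPM + 0.1) over all 6 libraries (3 residual degrees of freedom). Fold changes are on that scale and understate changes of low genes. P-values were adjusted by Benjamini-Hochberg over 14304 genes, and a call is an adjusted p under 0.05. The procedure was tested on simulated data, which were whole reads with a spread fixed in advance. The reads recovered here were not all whole, so that test does not bear on the calls given above.

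The deposited columns carry the letters A and B and the labels replicate numbers, so columns were tied to groups by their day alone. The members and gene lists were chosen with earlier results of these data known. From each of 8 pathway lists, up to 4 non-members with the smallest p at day 18 against day 0 are named, if their mean log2 level reached 1. The result of 1 gene so chosen is not reported here. Likeness used genes whose mean log2 level reached 3, without model-named genes. The 11 marker lists were summed whole. Lengths, positions and iron-responsive elements come from GENCODE M21 on mm10. For each of the 3 comparisons 18 alternatives were tried for every member.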

Additional observations from a re-analysis of the deposited data

Results flagged for a closer look

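For 7 of the 8 genes the effect at day 18 differed from the effect at day 4, both against day 0, by limma's test of the difference itself, which is the comparison of day 18 with day 4 since the day 0 libraries are shared. The same test called 25.9% of all tested genes. The effect at day 18 minus the effect at day 4, on the log2 scale, was 1.23 for Spic, 0.89 for Fth1, 0.83 for Slc11a1, 0.49 for Ftl1 and 0.29 for Hmox1. It was -0.18 for Slc40a1 and -0.50 for Tfrc. With the same prior spread for all levels, Hmox1 (adjusted p = 0.0572) and Slc40a1 (adjusted p = 0.0918) lost this call. For Blvrb the difference did not pass the test. Spic and Fth1 had values below 0 at day 4 and above 0 at day 18, though for Spic the day 4 value did not pass the test.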

How the results depend on the processing

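Of 432 values of the 8 genes under the alternatives, 417 kept their direction and their side of the threshold, 10 lost the call, 4 gained it and 1 reversed. Several alternatives, such as the filter, the robust setting and the prior spread, cannot change a fold change, only its p. Leaving out a library outside the comparison changed it little. The tally therefore overstates how far the values were put to the test. The reversal was Blvrb at day 4 against day 0, whose value ranged from -0.42 to 0.04 as libraries were left out (0.042 without day 4 library A). With the same prior spread for all levels, 0 members and 0 genes were called at day 4 against day 0, 2617 genes at day 18 against day 0 and 1360 at day 18 against day 4. On the RPKM scale, 1 member and 91 genes were called at day 4 against day 0, and 2099 genes at day 18 against day 4. The cause was not tested. Leaving out each library in turn gave 907 to 1553 genes called at day 4 against day 0, with 1002 without day 0 library A and 907 without day 0 library B, which leave day 0 with 1 library assumed to vary like the other groups. The letters of the columns did not pair the libraries (correlations of same-letter deviations of -0.018, 0.0018 and -0.042), and with a replicate block on the letter 1663, 4941 and 3660 genes and 4, 7 and 7 members were called in the 3 comparisons. Library totals shifted the median log2 fold change of all genes to 0.057, 0.099 and 0.038. With 2 libraries a group, 3 residual degrees of freedom limit the precision, and Spic and Blvrb rest on fewer than 350 reads a library.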
